A study of Homo sapiens with 8 samples.

Results

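The genes described here are 38 genes of the hypoxia response and of glycolysis, chosen by name: the 2 oxygen-regulated HIF alpha subunits, 17 enzymes of glycolysis and lactate formation, and 19 other targets of HIF. The table held 33221 genes, and 37 of the 38 names had a row in it. CA9 was not analysed here, so 18 other targets were measured. All 37 passed the filter on low counts and were tested among 22727 genes.

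RNA had been sequenced from prostate cancer cell lines in 8 libraries, 2 in each of 4 groups. Libraries labelled PC3, a line from a bone metastasis, were taken 72 h after infection with a CRISPR/Cas9 lentivirus. Its guide was directed at EphA2 in PC3 EphA2 KO and had no target in PC3 control, and the medium was F-12K. Libraries labelled DU145, a line from a brain metastasis, were taken 48 h after lipid transfection, in DMEM. The plasmid carried EphA2 in DU145 EphA2 OE and was the control in DU145 control. The labels describe no cloning of the knockout cells and no low-oxygen treatment, and give serum as the shared supplement of both media. EphA2 is a cell surface kinase that binds ephrin-A ligands on neighbouring cells. By the labels, line, delivery, medium and hours differ together between the PC3 and DU145 libraries and cannot be told apart. Whether replicates were separate cultures is not in the labels, so each p-value reflects how far these libraries spread, possibly for technical reasons alone.

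Libraries held 57571919 to 60951530 counts, so that 3 counts came to about 0.05 CPM (counts scaled to a common library total). EPHA2 itself was at 41.7 and 37.7 FPKM in the knockout against 55.1 and 55.6 in PC3 control, and at 69.3 and 81.0 in the overexpression against 58.8 and 58.9 in DU145 control. FPKM is a read count scaled by transcript length and library depth. The direction matched both labels, but neither difference passed over all genes (edgeR, adjusted p = 0.415 and 0.458). The control columns of the table were given to the lines by the convention of their names, since these names are not in the labels. CTNNA1, which is known to be deleted in PC3, was at 36.5 FPKM or more in every library, the PC3-labelled ones included. The identity of the cells was not tested, so line names here are those of the labels only. Keratins, EPCAM and CDH1 (5 of 5 epithelial markers) summed to 329 to 422 FPKM, and the endothelial list (4 of 4) to at most 0.168 FPKM. Of the leukocyte list 6 of 7 had a row and summed to 43.0 to 90.0 FPKM, nearly all of it F13A1, with PTPRC at 0.0121 FPKM or less. F13A1 was highest in DU145 control, at up to 89.6 FPKM, and at 42.9 to 67.0 in the other 6 libraries, and its part in the results was not tested. Of the fibroblast list 3 of 5 had a row and summed to 0.393 to 0.722 FPKM. Replicates differed most in DU145 EphA2 OE. Over 2022 genes with a mean of at least 20 FPKM, the median absolute log2 difference between replicates was 0.194 there, 0.11 in DU145 control, 0.0714 in PC3 control and 0.0597 in PC3 EphA2 KO.

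HIF is a transcription factor made of an oxygen-regulated alpha subunit and the constant partner ARNT. In oxygen, prolyl hydroxylases of the EGLN family mark the alpha subunit, VHL then binds it, and it is degraded, so that its control is mainly at the level of the protein and not of the mRNA. When oxygen falls, HIF binds short elements with the core ACGTG or GCGTG and raises glucose transporters, nearly every glycolytic enzyme, and targets that act on mitochondria, collagen and vessels. Carcinoma cells often keep high glycolysis in oxygen as well, and in them MYC and other factors also drive the enzymes.

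The promoters of 4 members that recur in the results show where such cores lie. Each sequence is the 250 bases before an annotated gene start in RefSeq (GRCh38.p14), read 5′ to 3′ on the gene's strand. Capitals mark every stretch that matches ACGTG or GCGTG on either strand, so the reverse complements CACGT and CACGC are in capitals too, and 2 overlapping matches form CACGTG. LDHA, which makes lactate from pyruvate, lies at chr11:18394313-18394562 on the plus strand and has 3 stretches. GAPDH, the glyceraldehyde-3-phosphate dehydrogenase and the most abundant member, lies at chr12:6535014-6535263 on the plus strand and has 1. EGLN1, the main HIF prolyl hydroxylase and itself a HIF target, lies at chr1:231422288-231422537 on the minus strand and has 1. ADM, the vasodilator peptide adrenomedullin, lies at chr11:10304823-10305072 on the plus strand and has 1, without the ACGTG core.
LDHA: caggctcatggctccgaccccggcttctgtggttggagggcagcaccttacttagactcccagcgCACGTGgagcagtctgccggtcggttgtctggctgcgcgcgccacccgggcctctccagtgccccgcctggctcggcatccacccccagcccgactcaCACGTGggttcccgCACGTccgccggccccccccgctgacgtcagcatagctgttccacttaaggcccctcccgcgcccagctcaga
GAPDH: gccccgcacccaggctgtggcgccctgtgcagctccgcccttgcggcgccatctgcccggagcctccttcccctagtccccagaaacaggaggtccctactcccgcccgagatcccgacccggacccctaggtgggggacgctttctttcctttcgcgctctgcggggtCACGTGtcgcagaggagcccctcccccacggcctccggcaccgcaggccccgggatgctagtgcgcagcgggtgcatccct
EGLN1: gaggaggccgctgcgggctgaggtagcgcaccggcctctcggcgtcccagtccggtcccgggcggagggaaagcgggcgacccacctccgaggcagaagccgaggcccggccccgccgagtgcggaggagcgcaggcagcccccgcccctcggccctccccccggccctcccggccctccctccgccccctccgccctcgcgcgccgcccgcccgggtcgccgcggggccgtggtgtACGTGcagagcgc
ADM: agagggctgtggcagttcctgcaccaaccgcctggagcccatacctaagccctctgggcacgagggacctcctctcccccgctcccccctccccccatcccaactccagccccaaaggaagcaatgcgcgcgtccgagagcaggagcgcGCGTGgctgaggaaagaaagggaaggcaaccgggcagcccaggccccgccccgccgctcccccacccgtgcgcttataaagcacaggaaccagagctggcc

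Of the 38 names, 35 had at least 1 promoter window in the RefSeq table, and 29 of these held a match in at least 1 window. By gene the sets were alike, with a match in 14 of 17 enzymes and 13 of 16 other targets that had a window. A share by gene was not computed over all genes, so these counts have no background to be set against. By window, 19 of 37 windows of glycolytic enzymes (51.4%) and 18 of 25 windows of the other targets (72%) held a match, against 43.2% of all 35116 windows of this length. The stricter core ACGTG was in 37.8% of the enzyme windows, in 40% of those of the other targets and in 18.5% of all windows. A gene with several starts has several windows, some of which overlap, so windows are not independent. A match is a description of the letters and not a site shown to be bound. PGAM1, PKM, LDHB, SLC2A1, P4HA2 and EGLN3 had no match in these windows, which says only that the letters are not there.

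The members spanned a wide range of mRNA levels, and the enzymes stood above the other targets. GAPDH had the highest mean over the 8 libraries at 1205 FPKM, followed by ENO1 (enolase) at 441 and PKM (pyruvate kinase) at 243, and GAPDH and ENO1 did not overlap with the next member in any library. From PKM down through PGAM1, LDHB, TPI1, ALDOA, LDHA and HIF1A, neighbours in the order overlapped between libraries. In all, 9 members were above 100 FPKM, 12 between 10 and 100, 11 between 1 and 10, and 5 under 1. The median of the mean FPKM was 53.0 for the enzymes and 4.39 for the other targets. Enzymes took 1.19% to 1.42% of a library's counts, and the other targets 0.0898% to 0.0990%.

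**Figure D1:**
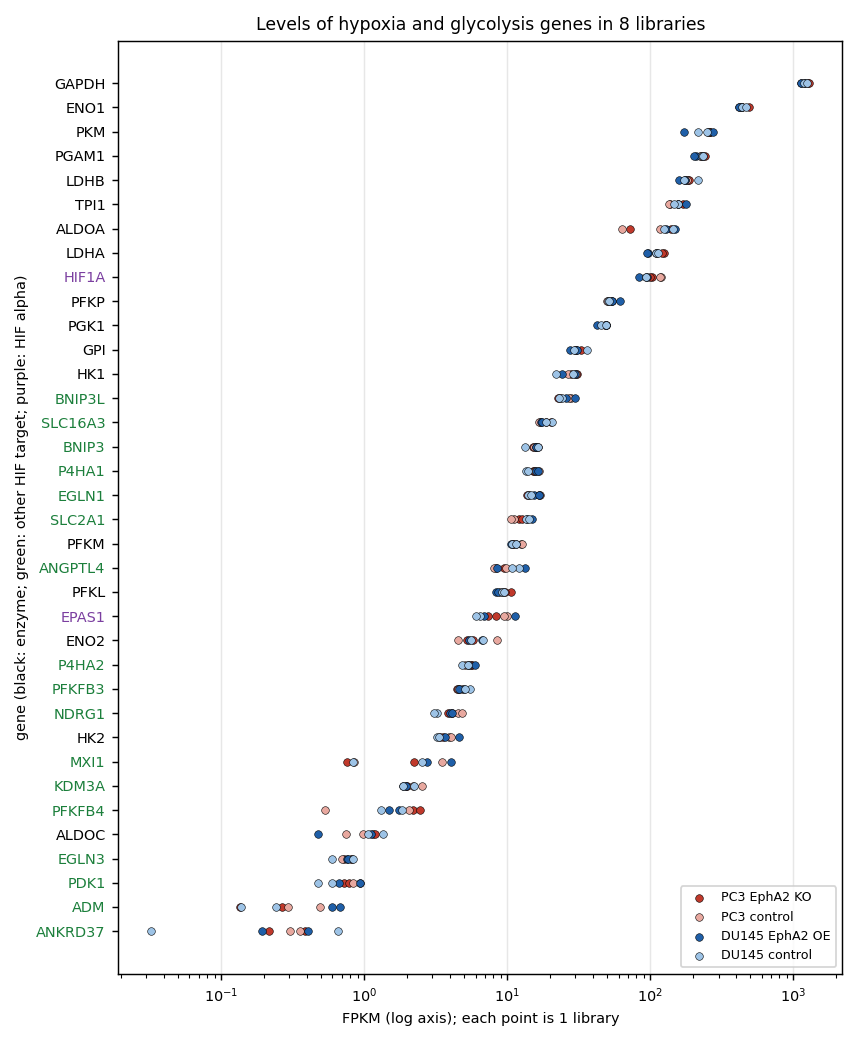
FPKM of each measured member except SLC2A3 on a log axis, ordered by mean FPKM, with 1 point per library coloured by group. SLC2A3 is left out, since its values of 0 in both PC3 control libraries cannot be shown on this axis. The enzymes run from ALDOC at a mean of 1.01 FPKM to GAPDH at 1205 FPKM, and for most members the 8 points lie close together.

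Among the least variable members over the 8 libraries were GAPDH (coefficient of variation 5.18%), PGK1 (5.48%), ENO1 (5.75%) and PGAM1 (5.89%). The most variable, SLC2A3 aside, were ADM (58.0%), MXI1 (58.0%), ANKRD37 (57.6%) and PFKFB4 (35.3%). MXI1, a MYC antagonist, ranged from 0.761 to 4.04 FPKM, and replicates of 1 group lay far apart: 0.761 and 2.24 FPKM in the knockout, 3.5 and 0.845 in PC3 control. ANKRD37, a small ankyrin protein induced by hypoxia, was at 0.0325 and 0.657 FPKM in the 2 libraries of DU145 control. For MXI1 and ANKRD37 replicates of 1 group differed by more than the group means did.

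Within glycolysis the same isoform led in every library. HK1, the housekeeping hexokinase, made up 86.6% to 90.0% of the FPKM summed with HK2, the HIF-induced form. HKDC1, a sister isoform outside this sum, was at 0.983 to 2.47 FPKM. PFKP, the platelet form of phosphofructokinase, made up 69.8% to 75.1% of the FPKM of its step. The muscle form PFKM made up 14.2% to 17.7% and the liver form PFKL 10.7% to 14.2%. ENO1 made up 98.0% to 99.0% of the FPKM summed with the neuronal form ENO2, and ALDOA 98.4% to 99.6% of that summed with ALDOC. ENO3, outside the enolase sum, was at 2.07 to 3.11 FPKM. LDHB, the form that favours pyruvate, exceeded LDHA in all 8 libraries. Of the glucose transporters, SLC2A1 (GLUT1) gave 99.5% to 100% of the FPKM summed with SLC2A3 (GLUT3).

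The PFKL share was at 14.2% and 13.5% in the knockout against 12.5% in each PC3 control library, and at 11.4% and 10.7% in the overexpression against 12.99% and 13.2% in DU145 control. For PFKL the knockout libraries lay above and the overexpression libraries below their controls. The PFKM share lay below its control in both, at 14.4% and 15.4% (knockout) against 16.8% and 17.7%. In the overexpression it was at 14.6% and 14.2% against 15.4% and 15.8%. The PFKP share lay above its control in both, at 71.4% and 71.1% (knockout) against 70.7% and 69.8%. In the overexpression it was at 74.1% and 75.1% against 71.6% and 71.0%. Shares of 1 step depend on each other. The LDHA share was at 40.6% and 39.4% in the knockout, 38.2% and 38.7% in PC3 control, 35.4% and 37.5% in the overexpression, and 39.0% and 34.4% in DU145 control. Here the knockout lay above its control, while the overexpression lay inside the range of DU145 control. These shares were not tested.

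**Figure D2:**
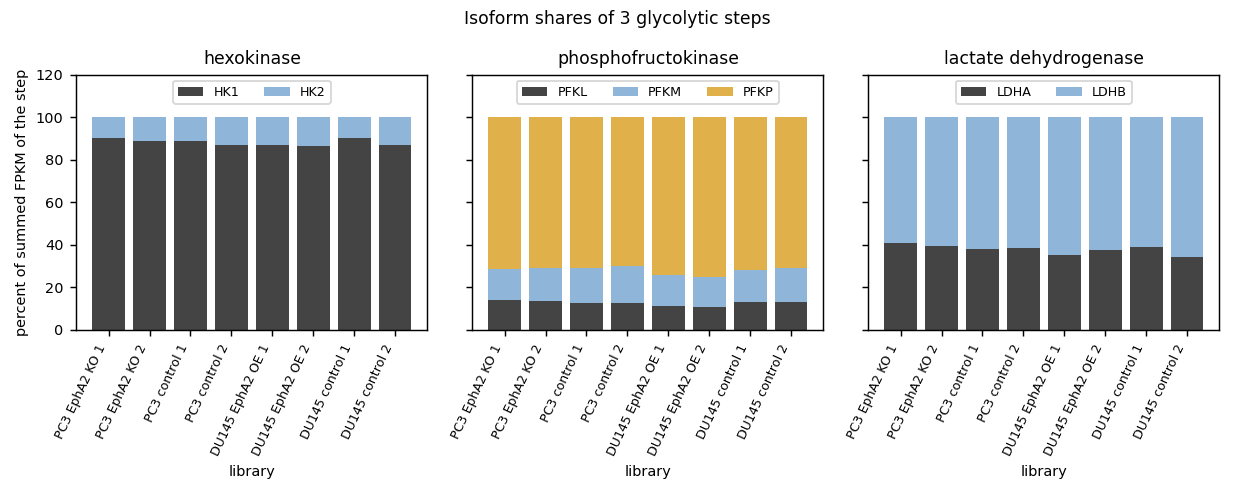
Percent of summed FPKM given by each member isoform of hexokinase (HK1 and HK2), phosphofructokinase and lactate dehydrogenase, 1 stacked bar per library. HK1, PFKP and LDHB are the largest share in each of the 8 bars, and the LDHA share runs from 34.4% to 40.6%.

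No member passed the adjusted threshold of 0.05 in any of 4 comparisons. In the knockout 0 of 37 members were called against 0.0264% of all genes tested (6 genes), in the overexpression 0 against 0.0396% (9 genes), in the difference of the 2 responses 0 against 0.0308% (7 genes), and between the controls 0 against 0.0572% (13 genes). The lowest adjusted p of a member was 0.707, 0.434, 0.284 and 0.212 in that order (edgeR's quasi-likelihood test, Benjamini-Hochberg adjustment over all genes). At an unadjusted p under 0.05 there were 6 of 37 members in the knockout, against 6.62% of all genes tested: 4 higher (3.11% of all genes) and 2 lower (3.51%). In the overexpression there were 7, against 9.06%: 4 higher (5.01%) and 3 lower (4.05%). In the difference there were 13, against 10.1%: 7 with a higher value in the overexpression response (5.78%) and 6 with a lower one (4.36%). Between the controls there were 7, against 9.01%: 3 higher in DU145 control (4.32%) and 4 lower (4.69%). DESeq2 called 0 members in the knockout and the overexpression, 1 in the difference and 2 between the controls, beside 190, 304, 413 and 350 of all genes. The members' values that follow are differences of which none passed over all genes in the edgeR fit of all 8 libraries. Values from other fits are named as such.

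By their medians, the glycolytic enzymes and the other targets lay on opposite sides of the control under each line label. With EphA2 knockout 14 of 17 enzymes had a fitted value above 0, with a median log2 fold change of 0.07, against 8 of 18 other targets with a median of -0.05. Over all genes tested 49.3% were above 0 and 50.3% below, with a median of -0.00. With EphA2 overexpression 5 of 17 enzymes were above 0, with a median of -0.11, against 13 of 18 other targets with a median of 0.07, while 51.1% of all genes were above 0 and 48.7% below, with a median of 0.01. The difference of the responses was above 0 for 4 of 17 enzymes (median -0.25) and 9 of 18 other targets (median 0.01), against 50.8% of all genes above 0 and 49.2% below. Of the enzymes 10 of 17 (58.8%) were higher with knockout and lower with overexpression, against 2 of 18 other targets (11.1%) and 26.5% of all genes. The reverse pattern, lower with knockout and higher with overexpression, was found in 1 enzyme (5.88%), 7 other targets (38.9%) and 28.2% of all genes. Members are not replicates, and these counts and medians carry no test.

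The contrast depended on the reading of the controls. When the 2 control groups were swapped, the enzyme median in the knockout was -0.00 and that of the other targets -0.00. In the same exchange the medians in the overexpression were -0.07 for the enzymes and 0.03 for the other targets. The controls also differed from each other: DU145 control exceeded PC3 control in 12 of 17 enzymes, with a median log2 difference of 0.08, and in 8 of 18 other targets, with a median of -0.01, against 48.9% of all genes. The knockout mean lay nearer to DU145 control than to its own control for 22 of 37 members (59.5%) and 50.9% of all genes. The overexpression mean lay nearer to PC3 control than to its own for 24 of 37 members (64.9%) and 54.2% of all genes.

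Single libraries weighed on the medians. Taking each library's deviation from the mean of all 8 on the log2 scale, the enzyme median was 0.02 and 0.05 in the knockout and -0.02 and -0.01 in PC3 control. It was 0.01 and -0.13 in the overexpression and 0.01 and 0.09 in DU145 control, so the second overexpression library was the lowest and the first lay level with DU145 control. The median of the other targets was -0.06 and 0.02 in the knockout, 0.01 and 0.03 in PC3 control, 0.04 and 0.08 in the overexpression and -0.07 and -0.05 in DU145 control. There the overexpression libraries were above both DU145 control libraries, while 1 knockout library lay between those of its control. Without the first overexpression library the enzyme median in the overexpression was -0.20, and without the second it was -0.09.

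**Figure D3:**
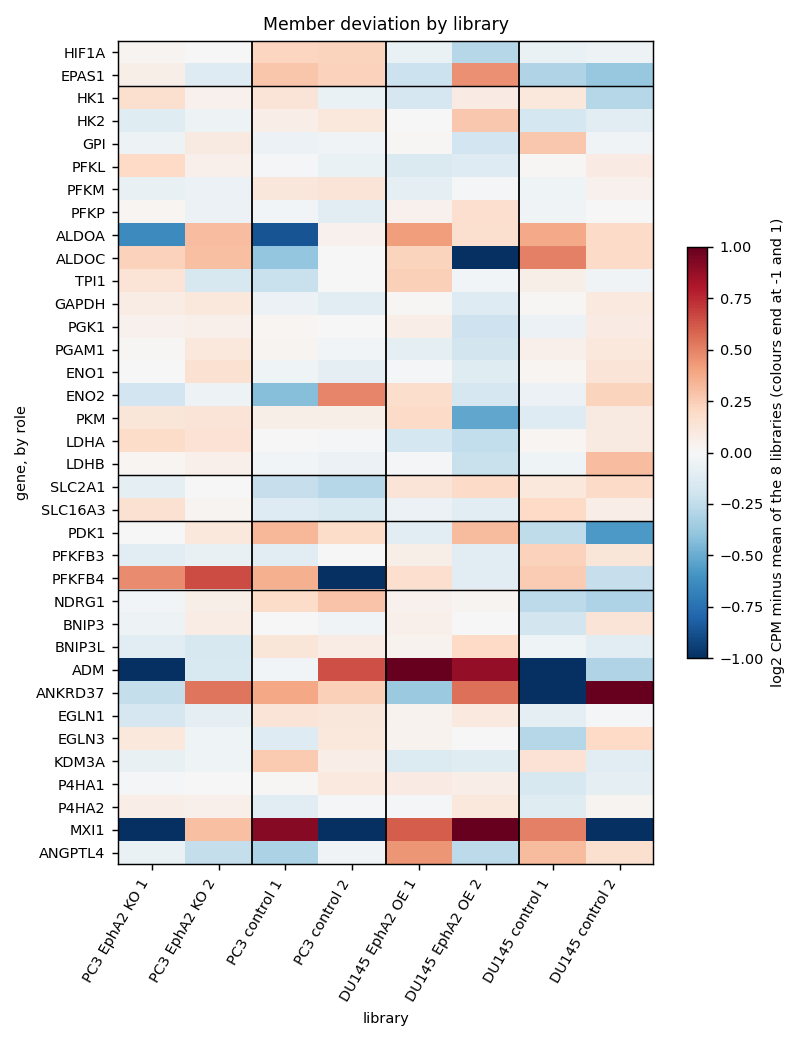
Log2 CPM of each measured member except SLC2A3 minus its mean over the 8 libraries. Members are in rows by role and libraries in columns, and colours end at -1 and 1. Most rows are pale, and deviations past the colour limits are found in ANKRD37, PFKFB4, MXI1, ADM and, in the second library of DU145 EphA2 OE, ALDOC.

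The HIF alpha subunits were lower in the knockout than in PC3 control. HIF1A (ENSG00000100644, chromosome 14, 61695513 to 61748258, plus strand) was at 102 and 99.5 FPKM in the knockout and 118 and 117 in PC3 control. In the overexpression it was at 94.2 and 83.8 FPKM against 93.6 and 93.6 in DU145 control. Both PC3 control libraries were thus the highest of the 8. With knockout the log2 fold change was -0.20 (SE 0.09; adjusted p = 0.755), and DU145 control lay 0.28 below PC3 control on the log2 scale (log2 difference -0.28, SE 0.09; unadjusted p = 0.0163, adjusted p = 0.445).

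EPAS1 (ENSG00000116016, chromosome 2, 46293667 to 46386696, plus strand) encodes HIF-2 alpha. It was at 8.37 and 7.32 FPKM in the knockout and 9.94 and 9.51 in PC3 control, at 6.86 and 11.3 in the overexpression and 6.41 and 6.00 in DU145 control. The knockout lay below and the overexpression above its control, though the overexpression libraries were far apart. Its log2 fold change was 0.50 (SE 0.20) in the overexpression (unadjusted p = 0.0389, adjusted p = 0.529) and -0.29 (SE 0.20) in the knockout (adjusted p = 0.826). Without the first overexpression library that fold change was 0.80 and the difference of the responses 1.08. That fit rested on the second library alone, the one at 11.3 FPKM. With the controls exchanged the overexpression fold change was -0.09.

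LDHA was the enzyme with the lowest p in the overexpression and in the difference. LDHA (ENSG00000134333, chromosome 11, 18394560 to 18408425, plus strand) was at 125 and 121 FPKM in the knockout, 112 and 110.2 in PC3 control, 96.1 and 95.0 in the overexpression and 109.5 and 113 in DU145 control. Both knockout libraries were the highest of the 8 and both overexpression libraries the lowest. The group means were 123 ± 2.99 FPKM (SD, n = 2), 111 ± 1.04 (SD, n = 2), 95.6 ± 0.782 (SD, n = 2) and 111 ± 2.78 (SD, n = 2) in that order. The log2 fold change was 0.17 (SE 0.07) with knockout (unadjusted p = 0.0459, adjusted p = 0.75) and -0.27 (SE 0.07) with overexpression (unadjusted p = 0.00663, adjusted p = 0.434). The difference of the responses was -0.44 (SE 0.10; unadjusted p = 0.00296, adjusted p = 0.284). That difference was called by DESeq2 (adjusted p = 0.0431). In edgeR it was -0.48 without the first overexpression library, a fit with the second library alone in that group. Over the alternatives its adjusted p ran from 0.0431 to 0.63. LDHB was at 183 and 186 FPKM in the knockout, 180.4 and 175 in PC3 control, 176 and 158 in the overexpression and 171 and 216 in DU145 control.

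GAPDH (ENSG00000111640, chromosome 12, 6534512 to 6538371, plus strand) was at 1269.8 and 1297 FPKM in the knockout and 1179 and 1129 in PC3 control. It was at 1199 and 1128 FPKM in the overexpression and 1190.2 and 1251 in DU145 control. The knockout libraries were the highest of the 8, and those of the overexpression overlapped with their control. Against PC3 control the log2 fold change was 0.17 (SE 0.07; unadjusted p = 0.0447, adjusted p = 0.748), and the difference of the responses was -0.29 (SE 0.10; unadjusted p = 0.0246, adjusted p = 0.442). With the controls exchanged the knockout value was 0.04.

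ENO1 (chromosome 1, 8861000 to 8878690, minus strand) was at 439.8 and 488 FPKM in the knockout, 435 and 416 in PC3 control, 429.8 and 415 in the overexpression and 438 and 469 in DU145 control. The fitted values were 0.15 with knockout and -0.15 with overexpression, each with an SE of 0.08, and their difference was -0.29 (SE 0.12; unadjusted p = 0.0372, adjusted p = 0.469), or 0.0025 with the controls exchanged. PGAM1, the phosphoglycerate mutase, was at 227 and 242 FPKM in the knockout, 233 and 223 in PC3 control, 208 and 203 in the overexpression and 228 and 235 in DU145 control. The overexpression libraries lay below the other 6, with a log2 fold change of -0.22 (SE 0.08; unadjusted p = 0.0257, adjusted p = 0.508). PKM (chromosome 15, 72199029 to 72231680, minus strand) was at 263 and 263 FPKM in the knockout, 256 and 253 in PC3 control, 273 and 172 in the overexpression and 216 and 249.9 in DU145 control. The second overexpression library held the lowest PKM value and the first the highest, and the fold change of -0.11 had an SE of 0.20.

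PFKL was at 10.7 and 9.59 FPKM in the knockout, 9.37 and 8.94 in PC3 control, 8.28 and 8.67 in the overexpression and 9.16 and 9.56 in DU145 control. PFKL thus lay above its control with knockout and below it with overexpression, and the difference was -0.36 (SE 0.13; unadjusted p = 0.0297, adjusted p = 0.447), or -0.18 with the controls exchanged. HK2 went the other way. It was at 3.41 and 3.57 FPKM in the knockout, 3.94 and 4.02 in PC3 control, 3.67 and 4.59 in the overexpression and 3.21 and 3.34 in DU145 control, with a difference of 0.45 (SE 0.19; unadjusted p = 0.044, adjusted p = 0.482), or 0.0064 with the controls exchanged. HK2 was the 1 enzyme that was lower with knockout and higher with overexpression. HK1, GPI (the hexose phosphate isomerase), PFKM, PFKP, TPI1 (the triose phosphate isomerase), PGK1 (the phosphoglycerate kinase) and ENO2 had fitted values between -0.22 and 0.10 with knockout and between -0.21 and 0.13 with overexpression.

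ALDOC, the brain form of aldolase, had the largest fitted values among the enzymes. It was at 1.15 and 1.19 FPKM in the knockout, 0.746 and 0.974 in PC3 control, 1.12 and 0.473 in the overexpression and 1.36 and 1.07 in DU145 control. The log2 fold changes were 0.45 with knockout and -0.64 with overexpression, each with an SE of 0.42 (adjusted p = 0.895 and 0.696). ALDOC overlaps AC005726 on its own strand, which held 389, 513 and 477 counts in the second library of the knockout, of the overexpression and of DU145 control and 0 in the other 5.

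ALDOA, the main aldolase, differed more within groups than between them. It was at 72.5 and 138.6 FPKM in the knockout and 63.0 and 116.7 in PC3 control, 148 and 129 in the overexpression and 143 and 125 in DU145 control. The first library of each PC3-labelled group was low and the second lay near the DU145-labelled ones. ALDOA (chromosome 16, 30064164 to 30070414, plus strand) lies under a same-strand gene, AC093512 (ENSG00000285043), which took 19219 to 31826 counts, beside 16929 to 38692 for ALDOA. Counting assembled from transcripts can divide reads between such genes. The highest library stood 2.36 times above the lowest for ALDOA in CPM, and 1.61 times for the sum of both genes, a sum chosen after the ALDOA values were seen. Summed, the 2 genes were still low in the first library of the knockout (723 CPM) and of PC3 control (693), while the other 6 libraries held 915 to 1119.

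**Figure D4:**
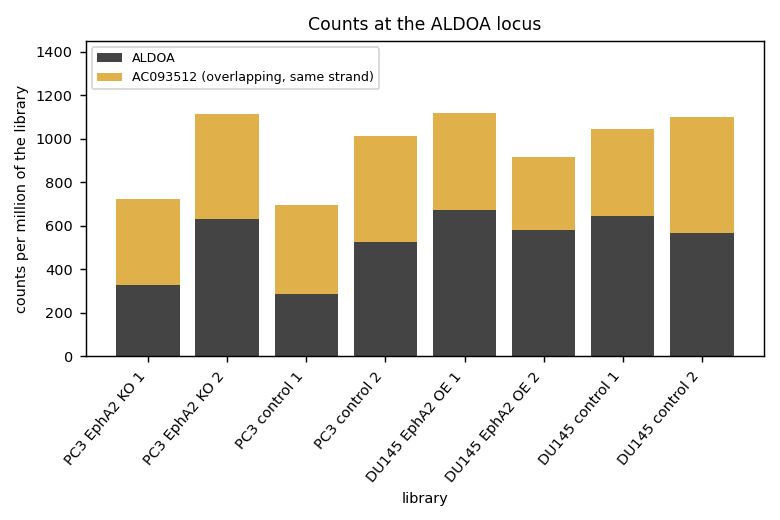
CPM of ALDOA and of the overlapping same-strand gene AC093512 in each of the 8 libraries, stacked. ALDOA is at 328 and 285 in the first library of PC3 EphA2 KO and of PC3 control, and between 527 and 672 in the other 6 libraries.

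In all 21 members overlapped another gene of the table, 5 of them (ALDOA, ALDOC, PGK1, ENO2 and SLC16A3) a same-strand gene with a mean of at least 50 counts. On the opposite strand, UFSP2 overlapped ANKRD37 and held 1203% of its mean count. CSNK1D held 87.5% of that of SLC16A3, and SENP1 64.4% of that of PFKM. GAPDH, LDHA, PGAM1, ENO1, PKM, PGK1 and TPI1 are also known for processed pseudogenes with near-identical sequence, and the division of reads among copies is not given in the sources used here.

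Transporters feed glucose in and let lactate out. SLC16A3 (MCT4), the lactate exporter of glycolytic cells, was at 20.3 and 18.5 FPKM in the knockout, 17.0 and 16.6 in PC3 control, 17.3 and 17.4 in the overexpression and 20.5 and 18.6 in DU145 control. It was above its control with knockout and below it with overexpression, as LDHA was. The log2 fold change was 0.23 (SE 0.09) with knockout (unadjusted p = 0.0356, adjusted p = 0.732) and -0.21 (SE 0.09) with overexpression (unadjusted p = 0.0485, adjusted p = 0.549). The difference was -0.45 (SE 0.13; unadjusted p = 0.00929, adjusted p = 0.359). With the controls exchanged both responses turned, to -0.04 and 0.06. DU145 control itself lay above PC3 control (0.27, SE 0.09; unadjusted p = 0.0179, adjusted p = 0.452).

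SLC2A1 was at 12.0 and 12.7 FPKM in the knockout, 11.2 and 10.6 in PC3 control, 13.8 and 15.0 in the overexpression and 13.6 and 14.2 in DU145 control. All 4 DU145-labelled libraries exceeded all 4 PC3-labelled ones. DU145 control exceeded PC3 control by 0.40 on the log2 scale (SE 0.09; unadjusted p = 0.0024, adjusted p = 0.303), which DESeq2 called (adjusted p = 0.0188). With knockout the value was 0.21 (SE 0.09; adjusted p = 0.755), and with overexpression 0.01 (SE 0.09; adjusted p = 0.992). SLC2A3 was near the limit of detection. It had 16 and 6 counts in the knockout, 0 and 0 in PC3 control, 4 and 34 in the overexpression and 6 and 4 in DU145 control. Against a floor of 3 counts over the PC3 control group it was at least 7.15-fold higher in the knockout and at least 3.32-fold higher in DU145 control, and neither passed (adjusted p = 0.719 and 0.548).

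Of the switches of glucose use, PDK1, the kinase that shuts pyruvate dehydrogenase, was at 0.725 and 0.782 FPKM in the knockout, 0.932 and 0.832 in PC3 control, 0.669 and 0.931 in the overexpression and 0.596 and 0.472 in DU145 control. DU145 control was the lowest group, by -0.67 against PC3 control (SE 0.20; unadjusted p = 0.0125, adjusted p = 0.431). The overexpression lay 0.53 above it (SE 0.20; unadjusted p = 0.0332, adjusted p = 0.522), and the knockout value was -0.21 (SE 0.20; adjusted p = 0.908). With the controls exchanged the overexpression value turned to -0.14, and the difference of the responses turned from 0.74 to -0.59. PFKFB4, a regulator of fructose-2,6-bisphosphate, was at 2.19 and 2.47 FPKM in the knockout, 2.05 and 0.534 in PC3 control, 1.75 and 1.5 in the overexpression and 1.85 and 1.30 in DU145 control. Its fold change of 0.87 with knockout (SE 0.52; adjusted p = 0.802) rested on 1 low control library. PFKFB3, its relative with strong kinase activity, stayed between 4.44 and 5.52 FPKM in the 8 libraries.

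Of the 12 targets outside glycolysis, 8 had a fitted value below 0 with knockout (median -0.17) and 9 a value above 0 with overexpression (median 0.11). In the knockout both libraries lay below both controls for 6 of them and above for 1. The corresponding shares of all genes were 23.6% and 19.5%. In the overexpression both libraries lay above both controls for 6 and below for 0, against 22.4% and 14.9% of all genes. Here too DU145 control was low: 9 of the 12 were below PC3 control, with a median of -0.16.

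ADM (ENSG00000148926, chromosome 11, 10305073 to 10307397, plus strand) had the largest fitted values of these. It was at 0.136 and 0.265 FPKM in the knockout and 0.294 and 0.492 in PC3 control, at 0.674 and 0.591 in the overexpression and 0.139 and 0.242 in DU145 control. In counts these were 23 and 48, 52 and 82, 109 and 97, and 24 and 41, so the values rest on few reads. The overexpression libraries were the highest of the 8, and the knockout libraries lay below both PC3 controls. The log2 fold change was 1.65 (SE 0.54) with overexpression (unadjusted p = 0.0163, adjusted p = 0.467) and -0.94 (SE 0.53) with knockout (adjusted p = 0.792). The difference was 2.60 (SE 0.75; unadjusted p = 0.00969, adjusted p = 0.361). With the controls exchanged the difference was 0.60. Over the alternatives the overexpression value ran from 0.46 to 2.08 and was not called in any of those that kept the gene.

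NDRG1, a stress protein linked to differentiation, showed the lowest p of the members between the controls. It was at 3.87 and 4.08 FPKM in the knockout, 4.55 and 4.84 in PC3 control, 4.0 and 4.11 in the overexpression and 3.22 and 3.08 in DU145 control. PC3 control was the highest group, DU145 control the lowest, and both altered groups lay between them. DU145 control differed from PC3 control by -0.52 (SE 0.10; unadjusted p = 0.000783, adjusted p = 0.212), which DESeq2 called (adjusted p = 0.00211). The overexpression value was 0.32 (SE 0.10; unadjusted p = 0.0115, adjusted p = 0.457) and the knockout value -0.22 (SE 0.10; adjusted p = 0.755). Their difference was 0.54 (SE 0.14; unadjusted p = 0.00471, adjusted p = 0.311), and with the controls exchanged it was -0.50.

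EGLN1 was at 13.6 and 14.3 FPKM in the knockout and 17.0 and 16.7 in PC3 control, at 15.5 and 16.8 in the overexpression and 14.1 and 14.7 in DU145 control. As with NDRG1, the knockout lay below its control and the overexpression above. The log2 fold change with knockout was -0.25 (SE 0.09; unadjusted p = 0.0234, adjusted p = 0.707) and the difference 0.37 (SE 0.12; unadjusted p = 0.019, adjusted p = 0.419), or 0.02 with the controls exchanged. BNIP3L, a mitophagy receptor, was at 23.5 and 22.7 FPKM in the knockout, 28.1 and 27.0 in PC3 control, 25.8 and 29.9 in the overexpression and 24.2 and 22.9 in DU145 control. Its values were -0.24 with knockout (SE 0.09; unadjusted p = 0.0378, adjusted p = 0.735) and 0.43 for the difference (SE 0.13; unadjusted p = 0.0127, adjusted p = 0.398), or 0.09 with the controls exchanged. Its close relative BNIP3 stayed between 13.4 and 16.5 FPKM with no such pattern.

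The other targets outside glycolysis were EGLN3 (a second inducible prolyl hydroxylase), KDM3A (a histone H3 lysine demethylase), P4HA1 and P4HA2 (collagen prolyl hydroxylases), ANGPTL4 (a lipoprotein lipase inhibitor), MXI1 and ANKRD37. P4HA1, at 13.5 to 16.6 FPKM, was below its control in the knockout (15.2 and 15.4 against 15.7 and 16.6) and above it in the overexpression (16 and 16.4 against 13.5 and 14.0). KDM3A was also lower in the knockout, at 1.96 and 2.00 FPKM against 2.53 and 2.18. Unlike P4HA1, it had a fitted value below 0 with overexpression as well (-0.16, SE 0.13). P4HA2 was the 1 target of this group with both knockout libraries above both controls, at 5.65 and 5.57 FPKM against 5.11 and 5.42. EGLN3 and ANGPTL4 had fitted values between -0.10 and 0.04 in both responses.

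**Figure D5:**
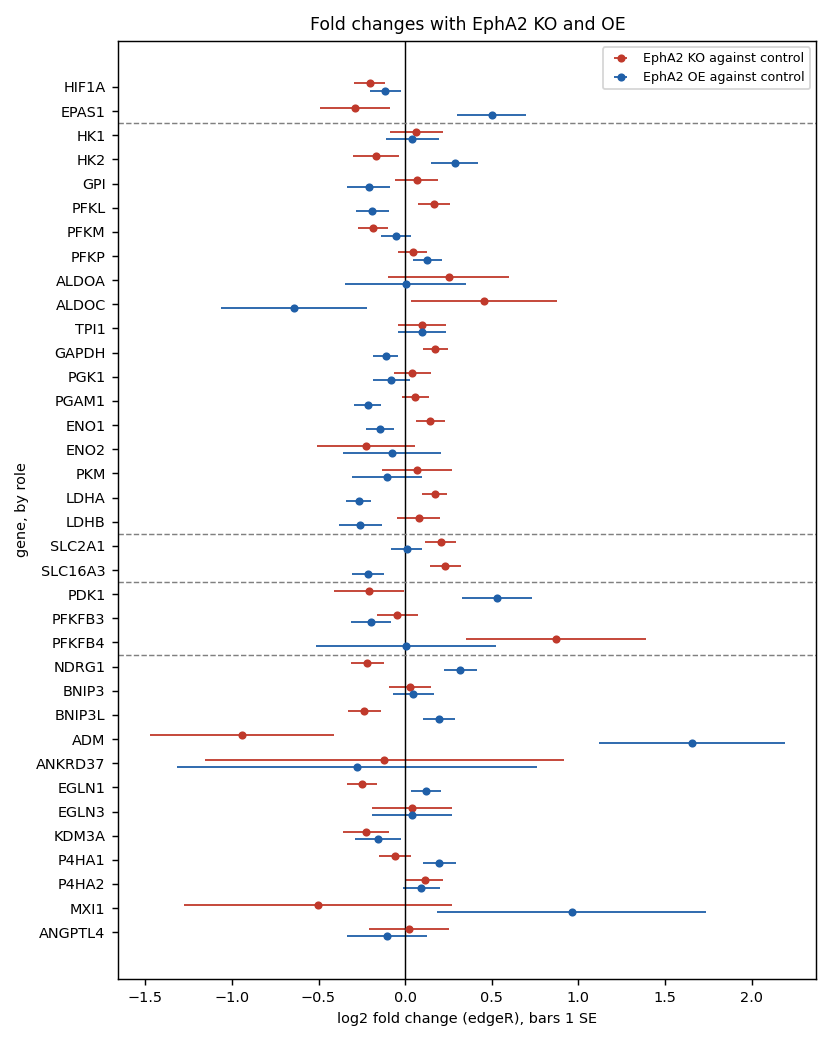
Log2 fold change of each measured member with EphA2 knockout against PC3 control and with EphA2 overexpression against DU145 control, from edgeR, with bars of 1 SE; members are ordered by role, and SLC2A3, which is at 0 in PC3 control, is left out. Enzymes such as LDHA (0.17 and -0.27) and targets such as NDRG1 (-0.22 and 0.32) lie on opposite sides of 0 in the 2 comparisons, and no point passed the adjusted threshold.

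Wider lists of the same pathway gave 0 calls in either comparison. Of 13 genes of the HIF machinery 12 were tested: 5 were higher and 7 lower with knockout, and likewise 5 and 7 with overexpression. CITED2, which competes with HIF for its coactivator, was at 7.30 and 7.21 FPKM in the knockout and 17.0 and 16.3 in PC3 control, and at 15.9 and 8.31 in the overexpression against 7.32 and 6.90 in DU145 control. Its fold changes were -1.18 (SE 0.28; unadjusted p = 0.00325, adjusted p = 0.495) and 0.73 (SE 0.28; unadjusted p = 0.0304, adjusted p = 0.511), and again DU145 control lay far below PC3 control. VHL, the recognition subunit of the ubiquitin ligase for HIF alpha, was at 5.53 and 6.31 FPKM in the knockout against 12.4 and 10.3 in PC3 control (-0.92, SE 0.22; unadjusted p = 0.00403, adjusted p = 0.507). ARNT was at 8.58 and 7.69 FPKM in the overexpression against 10.3 and 9.83 in DU145 control (-0.35, SE 0.10; unadjusted p = 0.0102, adjusted p = 0.452).

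Of 30 further HIF targets, 13 were higher and 17 lower with knockout, and 19 higher and 11 lower with overexpression. AK4, a mitochondrial adenylate kinase, had the largest fitted value of these in the overexpression. It was at 5.23 and 7.03 FPKM in the knockout, 2.76 and 4.95 in PC3 control, 1.84 and 2.05 in the overexpression and 6.52 and 6.58 in DU145 control. Its fold change was -1.80 in the overexpression (SE 0.27; unadjusted p = 0.000226, adjusted p = 0.206) and 0.69 in the knockout (SE 0.27; unadjusted p = 0.0334, adjusted p = 0.732). DDIT4 (an inhibitor of mTORC1) and STC1 (stanniocalcin) were above their control in the overexpression, by 0.99 (SE 0.30; adjusted p = 0.457) and 0.37 (SE 0.10; adjusted p = 0.45). DDIT4 was at 57.5 and 129.5 FPKM there, so its 2 libraries were far apart. PLOD2 (a collagen lysyl hydroxylase) was below its control in the overexpression (-0.35, SE 0.11; adjusted p = 0.467), and LOXL2 (a lysyl oxidase relative) in the knockout (-0.29, SE 0.10; adjusted p = 0.68).

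Of 33 sister isoforms and branches of glucose use, 28 were tested, with 9 higher and 19 lower in the knockout and 13 higher and 15 lower in the overexpression. PDK4, a relative of PDK1, was at 0.684 and 0.690 FPKM in the knockout, 1.16 and 1.12 in PC3 control, 1.03 and 0.782 in the overexpression and 0.536 and 0.560 in DU145 control. As with PDK1, the means of both altered groups lay between those of the 2 controls (fold changes -0.70 and 0.67, each with an SE of 0.24; adjusted p = 0.681 and 0.506). LDHD, the D-lactate dehydrogenase of mitochondria, had 7 and 9 counts in the knockout against 52 and 59 in PC3 control (-2.80, SE 0.85; adjusted p = 0.645). In the overexpression PCK2 (mitochondrial phosphoenolpyruvate carboxykinase) and MPC1 (a subunit of the mitochondrial pyruvate carrier) were above their control, by 0.93 (SE 0.31; adjusted p = 0.487) and 0.85 (SE 0.30; adjusted p = 0.498). BPGM, which makes 2,3-bisphosphoglycerate, was below it (-0.46, SE 0.14; adjusted p = 0.464). SLC16A7 (MCT2) had 38 and 12 counts in the overexpression and 0 and 0 in DU145 control, at least 17.1-fold higher against a floor of 3 counts over the group (adjusted p = 0.45).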

How the data were processed

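RNA was measured by poly(A) RNA-seq with dUTP in the second strand, per the labels' protocols. The authors deposited 1 table with a raw whole-number count and an FPKM for each gene and library, in 16 value columns, of which 0 were left unmapped. The submitters' processing notes name StringTie 2.1.6, HISAT2 2.2.1, cutadapt 1.9, edgeR and DESeq2 and the build GRCh38. Neither the annotation release nor strand use in counting is given in the sources used here, so reads of overlapping genes may be shared.

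The deposited counts were tested by quasi-likelihood in edgeR 4.0.16 under R 4.3.3, with TMM factors (0.973 to 1.03) and 4 group means over 8 libraries. Genes passed filterByExpr (minimum count 10, total 15), and p-values were adjusted over 22727 genes by Benjamini-Hochberg with a threshold of 0.05. An SE is the size of a log2 fold change divided by the root of its F statistic. Medians over members have no test. The fit was also run on simulated data, with planted changes larger than most values of the members. That run does not show how the fit performs at changes as small as most of theirs. Alternatives used DESeq2 1.42.0, limma 3.58.1 on log2(FPKM + 1) and log2(FPKM + 0.1), other filters and scalings, left-out libraries, a replicate block and exchanged controls.

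The members and lists were chosen with earlier results of these data known. Values in each library are printed for the HIF alpha subunits, the 3 most abundant members, members with an unadjusted p under 0.05 in any comparison, and the largest fold change of each role; other values were chosen after they were seen. Named genes of the wider lists are at most 10 per response with an unadjusted p under 0.05. HKDC1 and ENO3 are named besides, as sister isoforms. Some marker genes are not reported here.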

Additional observations from a re-analysis of the deposited data

How the results depend on the processing

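Calls among the members stayed at 0 in the knockout under every alternative run; elsewhere only the settings named here changed them. DESeq2 gave 190 (knockout), 304 (overexpression), 413 (difference) and 350 calls (controls) over all genes, with 1 member in the difference and 2 between the controls. Without a filter there were 4 calls in the overexpression, and with a mean of at least 1 FPKM 12 in the knockout and 23 in the difference. limma on log2(FPKM + 1) gave 23 calls between the controls and a median of -0.0512 for the other targets there. With 0.1 in place of 1 there were 12 calls in the knockout and 25 between the controls, and the other targets had medians of 0.15 (overexpression) and -0.13 (controls). In fits of the 4 compared libraries alone, 11 members had an unadjusted p under 0.05 in the knockout and 2 in the overexpression, with 0 calls over all genes in the overexpression and 20 between the controls.

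With the controls exchanged, calls over all genes were 13 in the knockout and 16 in the difference, and members at an unadjusted p under 0.05 numbered 1 in the knockout, 4 in the overexpression and 4 in the difference. The medians in the knockout were -0.0014 for enzymes, -0.0037 for other targets and 0.0023 for the enzymes minus the other targets, and 0.0348 for the other targets in the overexpression. Of the values of named members, 10 of 26 changed sign under this exchange and 0 under the other alternatives.

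Over all genes tested no pairing by replicate number was seen: deviations of same-numbered libraries correlated at -0.0060 (PC3) and -0.0036 (DU145). Every gene weighed alike in this measure, and a pairing among abundant genes alone was not tested. The fit with the replicate block gave 0, 3, 0 and 3 calls over all genes in the knockout, the overexpression, the difference and between the controls. Members at an unadjusted p under 0.05 numbered 1, 3 and 8 in the first 3 of these. With the block the median of the other targets was 0.11 in the overexpression and -0.0818 between the controls, where the enzymes minus the other targets came to 0.16.

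Leaving out each library in turn gave 6 to 27 calls over all genes in the knockout (27 without the second overexpression library), 3 to 376 in the overexpression and 11 to 323 in the difference (376 and 323 without the first overexpression library) and 4 to 114 between the controls (114 without the second overexpression library and 4 without the second DU145 control). Calls among members ran from 0 to 1 in the overexpression (EPAS1) and 0 to 2 in the difference (EPAS1 and LDHA), both without the first overexpression library. Members at an unadjusted p under 0.05 ran from 0 to 11 in the knockout (0 without the first knockout or the second PC3 control library, 11 without either overexpression library), 5 to 16 in the overexpression and 6 to 17 in the difference (16 and 17 without the first overexpression library) and 3 to 9 between the controls (3 without the first PC3 control). The enzyme median in the overexpression ran from -0.20 to -0.0703. The median of the other targets ran from -0.0795 to -0.00044 in the knockout, 0.0562 to 0.20 in the overexpression and -0.10 to 0.0815 between the controls. The enzymes minus the other targets ran from 0.08 to 0.17 in the knockout, -0.34 to -0.17 in the overexpression and 0.0118 to 0.15 between the controls. The cause of these changes was not tested. A lone library was assumed to vary like the other groups.

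Isoform shares from counts per kilobase were not run, since the table gives no transcript length. The exchange turns the comparison of the controls around by construction, and the difference needs all 8 libraries. Depth limits SLC2A3, SLC16A7, LDHD, ADM and ANKRD37, which have few counts.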
